A study of Mus musculus with 10 samples.

Results

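The 8 genes described here make, copy or remove methylation of cytosine in mouse DNA. They are the DNA methyltransferase genes Dnmt1, Dnmt3a and Dnmt3b, their helpers Dnmt3l and Uhrf1, and the oxidase genes Tet1, Tet2 and Tet3. They were taken by symbol from 4 tables of gene expression with 36806 rows each, and every gene had 1 row in every table. The libraries came from littermates of the C57BL/6 strain, Ago4-/- and Ago4+/+. Ago4 encodes a member of the Argonaute family, proteins guided by small RNAs, and the labels give nothing more on the deletion or on how many mice gave each library. For each genotype there was 1 mRNA library of whole testis at day 3, 1 of whole testis at day 8, 1 of leptotene/zygotene spermatocytes and 1 of pachytene spermatocytes, with an age of 70 days for both cell types. The 2 small RNA libraries of the series, from pachytene cells, were not analysed here. The tables are named for day 3, pre-meiotic, leptotene/zygotene and pachytene material, and each compares 2 conditions named only by number. No label says which condition is Ago4-/-, or that the tables order them alike, so the conditions are called second and first, and every fold is the second over the first. The pre-meiotic table was assigned to whole testis of young mice but to neither age.

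Dnmt1 copies the methylation pattern of the old DNA strand onto the new one at replication, and Uhrf1 binds the hemimethylated sites and brings Dnmt1 to them. Dnmt3a and Dnmt3b place methylation where there was none, and Dnmt3l, which has no enzyme activity of its own, stimulates them. The TET enzymes oxidise 5-methylcytosine, which opens a route back to unmodified cytosine. In the male germ line of the mouse most new methylation is laid down in prospermatogonia before birth and needs Dnmt3l, and Dnmt3l is transcribed from different starts in prospermatogonia, oocytes and spermatocytes. Spermatogonia divide by mitosis, and meiosis then runs through leptotene, zygotene and pachytene, in this order, after the last replication of the DNA.

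Levels are in FPKM, fragments scaled to transcript length and to all mapped fragments. Depth was not given, and the worth of 1 read in the second condition over that in the first, taken from steps among low genes, was 1.17 at day 3, 0.673 in the pre-meiotic table, 0.917 at leptotene/zygotene and 1.91 at pachytene. There was 1 library per genotype and stage, hence no replicate error, and each test by the authors sets 1 library against another rather than genotypes against each other. Ago4, listed as Eif2c4, was higher in the second condition of all 4 tables, between 1.23 and 12.1 FPKM against 0.897 to 4.37 FPKM in the first, and was not used to assign a genotype. The leptotene/zygotene libraries stood apart from their label. Their 8 leptotene and zygotene markers summed to 267 FPKM (second) and 323 FPKM (first), below the 448 FPKM (second) and 542 FPKM (first) of the pachytene libraries. Their 6 spermatid markers summed to 53969 FPKM (second) and 45707 FPKM (first), against 8996 FPKM (second) and 6910 FPKM (first) at pachytene. The comparison of these libraries with the pre-meiotic table is therefore followed by that of the pachytene libraries with the pre-meiotic table. The comparison of pachytene with leptotene/zygotene cells cannot be given without them. Sertoli cell markers, 7 of 8 found, summed to 2808 (second) and 2717 (first) FPKM at day 3, 2710 (second) and 2579 (first) in the pre-meiotic table, 46.6 (second) and 64.0 (first) at leptotene/zygotene and 124 (second) and 110 (first) at pachytene. In bulk samples fewer cells of a type and less RNA per cell cannot be told apart, and the part of this cell mixture in the stage differences below was not tested.

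RefSeq gives 15 start windows for the 8 genes in the GRCm38.p6 assembly, each taken here as the 250 bases before a transcript start. The genes differ widely in how many CG pairs, the sites of DNA methylation, these bases hold, and 6 windows are shown because their genes follow the 3 patterns described below. Dnmt3l was higher in the spermatocyte libraries than in the young testes, Dnmt3a and Tet3 were far lower in them, and Uhrf1 changed least. Letters run 5′ to 3′ along the gene, and capitals mark each CG, which reads the same on both strands.
Dnmt3l window 1, chr10:78042037-78042286, plus strand: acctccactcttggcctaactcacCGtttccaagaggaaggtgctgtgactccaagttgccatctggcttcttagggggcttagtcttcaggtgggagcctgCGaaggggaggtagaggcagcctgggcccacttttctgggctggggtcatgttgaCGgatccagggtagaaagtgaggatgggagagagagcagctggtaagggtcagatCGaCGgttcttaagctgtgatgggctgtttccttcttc
Dnmt3l window 2, chr10:78049592-78049841, plus strand: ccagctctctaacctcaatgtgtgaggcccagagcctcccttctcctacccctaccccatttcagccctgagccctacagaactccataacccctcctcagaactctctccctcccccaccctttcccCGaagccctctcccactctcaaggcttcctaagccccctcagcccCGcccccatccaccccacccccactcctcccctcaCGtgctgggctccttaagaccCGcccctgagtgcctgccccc
Dnmt3l window 3, chr10:78055085-78055334, plus strand: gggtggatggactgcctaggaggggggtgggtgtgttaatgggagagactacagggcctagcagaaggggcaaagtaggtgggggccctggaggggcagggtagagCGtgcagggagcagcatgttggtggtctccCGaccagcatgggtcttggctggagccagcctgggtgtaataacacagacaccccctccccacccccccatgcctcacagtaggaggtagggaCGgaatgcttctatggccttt
Dnmt3a window 2, chr12:3806910-3807159, plus strand: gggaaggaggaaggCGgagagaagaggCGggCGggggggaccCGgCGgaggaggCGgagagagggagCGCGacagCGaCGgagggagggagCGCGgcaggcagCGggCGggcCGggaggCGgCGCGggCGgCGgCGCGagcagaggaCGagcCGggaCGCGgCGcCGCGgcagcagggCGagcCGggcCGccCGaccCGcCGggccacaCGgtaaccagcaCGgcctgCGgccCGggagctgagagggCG
Tet3 window 1, chr6:83441679-83441928, minus strand: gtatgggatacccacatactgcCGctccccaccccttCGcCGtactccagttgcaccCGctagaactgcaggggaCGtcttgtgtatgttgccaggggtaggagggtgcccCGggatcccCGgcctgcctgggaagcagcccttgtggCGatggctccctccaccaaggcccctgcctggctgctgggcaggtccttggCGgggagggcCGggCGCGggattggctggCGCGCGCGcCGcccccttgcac
Uhrf1 window 2, chr17:56304063-56304312, plus strand: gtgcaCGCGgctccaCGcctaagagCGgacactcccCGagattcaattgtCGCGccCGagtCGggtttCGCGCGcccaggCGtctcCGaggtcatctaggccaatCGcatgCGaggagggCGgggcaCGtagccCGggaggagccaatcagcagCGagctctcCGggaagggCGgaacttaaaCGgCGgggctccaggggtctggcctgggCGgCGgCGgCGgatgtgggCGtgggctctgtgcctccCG

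The 3 Dnmt3l windows hold 5, 4 and 3 CG pairs, and the median over 32851 windows of 27025 genes was 6. Dnmt3a window 2 holds 40 CG pairs, a count reached by 1.31% of all windows, and its other windows hold 38 and 15. Uhrf1 window 2 holds 30, a count reached by 5.94% of all windows, while its window 1 holds 10. Tet3 has 1 window with 17 CG pairs, a count reached by 23.5% of windows. Of the windows not shown, that of Tet2 holds 51, a count reached by 0.067% of windows, that of Dnmt3b holds 21, that of Tet1 holds 15, and the 3 of Dnmt1 hold 2, 7 and 26. These counts describe the reference, not methylation in these cells, and the FPKM of a gene does not tell which of its starts was used.

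Dnmt1 was lower in both spermatocyte stages than in the young testes. It had 47.4 FPKM in the second and 61.2 FPKM in the first condition at day 3, and 70.8 (second) and 76.4 (first) FPKM in the pre-meiotic table. It had 5.48 (second) and 6.41 (first) FPKM at leptotene/zygotene and 20.7 (second) and 16.6 (first) FPKM at pachytene. The lowest young testis value was 2.29 times the highest spermatocyte value, so the groups did not overlap. Day 3 and pre-meiotic values did not overlap either, but their means differed by less than 2-fold. The tables were normalized separately, which holds for every level set across stages here.

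Uhrf1 had the highest FPKM of the 8 genes in each of the 8 libraries and the narrowest range over them. It had 56.1 (second) and 98.8 (first) FPKM at day 3, 88.2 (second) and 78.9 (first) in the pre-meiotic table, 37.8 (second) and 44.4 (first) at leptotene/zygotene and 73.6 (second) and 85.9 (first) at pachytene. Its highest value was 2.61 times its lowest, against 10.6 times for Dnmt3l and 57.0 times for Tet3. The day 3, pre-meiotic and pachytene values overlapped, and those of leptotene/zygotene lay below all of them.

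**Figure D1:**
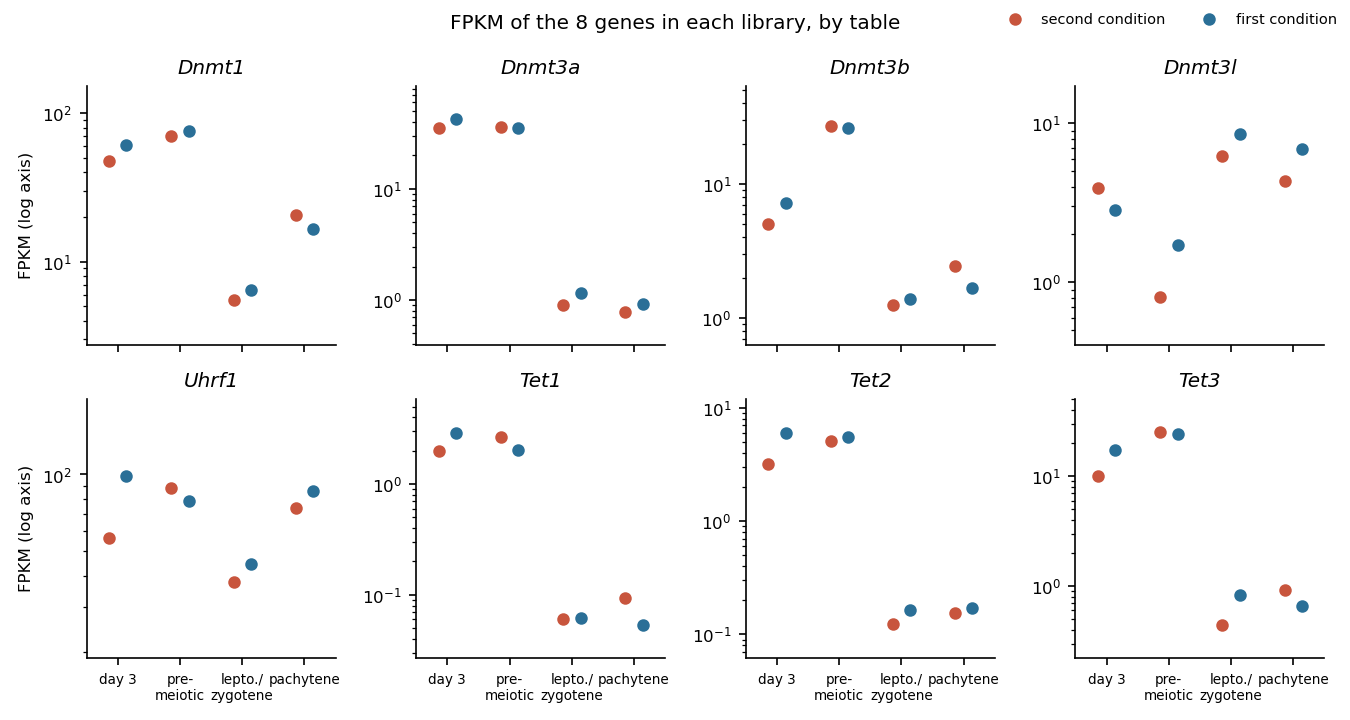
FPKM of each gene (y axis, log scale, its own range in each panel) in the 4 tables (x axis), with the second condition in red to the left and the first in blue to the right, 1 library per point. Dnmt3a, Tet1, Tet2 and Tet3 were lower in every spermatocyte library than in any young testis library, Uhrf1 stayed between 37.8 and 98.8 FPKM, and Dnmt3l was higher in spermatocytes.

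The de novo enzymes differed in when they were high. Dnmt3a had 35.2 (second) and 42.2 (first) FPKM at day 3, 36.2 (second) and 35.3 (first) in the pre-meiotic table, 0.901 (second) and 1.15 (first) at leptotene/zygotene and 0.787 (second) and 0.924 (first) at pachytene. Day 3 and pre-meiotic values overlapped, and even the lowest of the 4 was 30.7 times the highest spermatocyte value. Dnmt3b had 5.04 (second) and 7.20 (first) FPKM at day 3 and 26.9 (second) and 26.1 (first) FPKM in the pre-meiotic table. It had 1.26 (second) and 1.38 (first) FPKM at leptotene/zygotene and 2.43 (second) and 1.66 (first) FPKM at pachytene. Its pre-meiotic pair lay above all other values, and its day 3 pair lay above all 4 spermatocyte values.

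Dnmt3l went the other way. It had 3.90 (second) and 2.83 (first) FPKM at day 3 and 0.809 (second) and 1.71 (first) FPKM in the pre-meiotic table. It had 6.26 (second) and 8.57 (first) FPKM at leptotene/zygotene and 4.34 (second) and 6.90 (first) FPKM at pachytene. All 4 spermatocyte values lay above all 4 young testis values, though the nearest pair, 4.34 FPKM at pachytene and 3.90 FPKM at day 3, differed by a ratio of only 1.11. The tables give Dnmt3l in a locus shared with Aire, which had at most 0.571 FPKM in any library, and Dnmt3a and Dnmt3b share theirs with Gm10485 and 7530422B04Rik, both at or under 0.158 FPKM. No strand step is named for the kit, so the reads of such neighbours may be mixed.

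The TET genes were all far lower in the spermatocyte libraries, and Tet3 was the highest of them in every library. Tet3 had 10.0 (second) and 17.3 (first) FPKM at day 3, 25.1 (second) and 24.2 (first) in the pre-meiotic table, 0.440 (second) and 0.827 (first) at leptotene/zygotene and 0.922 (second) and 0.652 (first) at pachytene. Tet2 had 3.16 (second) and 5.92 (first) FPKM at day 3, 5.12 (second) and 5.48 (first) in the pre-meiotic table, 0.123 (second) and 0.165 (first) at leptotene/zygotene and 0.155 (second) and 0.171 (first) at pachytene. Tet1 had 2.00 (second) and 2.91 (first) FPKM at day 3, 2.65 (second) and 2.01 (first) in the pre-meiotic table, 0.0610 (second) and 0.0619 (first) at leptotene/zygotene and 0.0936 (second) and 0.0534 (first) at pachytene. For Tet1 and Tet2 the day 3 and pre-meiotic values overlapped, as did those of leptotene/zygotene and pachytene. For Tet3 the pre-meiotic pair lay above the day 3 pair. The lowest young testis value was 21.4 times the highest spermatocyte value for Tet1, 18.4 times for Tet2 and 10.9 times for Tet3.

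Differences between stages were taken as the mean of log2(FPKM + 0.1) of the later table minus that of the earlier. A gene was counted as higher or lower where this difference was at least 2-fold and the 2 pairs of values did not overlap. In the pre-meiotic table against day 3, Dnmt3b alone was counted as higher, with a log2 difference of 2.12 (4.34-fold), and Dnmt3l alone as lower, with -1.42 (2.67-fold lower). Of 18792 genes with at least 1 FPKM in 1 or more of the 4 libraries, 13.2% were higher and 18.7% lower by the same count. Tet3 came next with a log2 difference of 0.90 and Dnmt1 with 0.45, and the other 4 genes lay between -0.11 and 0.29. The median over all genes was -0.11. With single libraries, Dnmt3b passed 2-fold in all 4 choices (1.84 to 2.39). Tet3 had 1.31 and 1.26 against the second day 3 library but 0.53 and 0.48 against the first, and Dnmt3l had -0.70 between the first libraries of both tables.

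In leptotene/zygotene cells against the pre-meiotic table, 7 of the 8 genes were lower and Dnmt3l was higher. Of 20079 genes, 52.5% were lower and 25.3% higher, and the median over all genes was a log2 difference of -1.36, so a lower value is what most genes showed. Dnmt3a and Tet3 had log2 differences of -5.01 and -5.13, which is 32.1-fold and 35.0-fold lower. Tet2 had -4.47, Dnmt3b -4.23, Tet1 -3.90, Dnmt1 -3.61 and Uhrf1 -1.02. Tet1 had at most 0.0619 FPKM and Tet2 at most 0.165 FPKM at leptotene/zygotene, so the 0.1 added makes their differences smaller than their FPKM ratios. That Tet1 shows a smaller difference than Dnmt3b rests on the 0.1 added. Dnmt3l had 2.53, or 5.79-fold higher. Scaling the libraries to the median of 10259 genes with at least 1 FPKM in all of them moved the median of all genes to -0.24, the difference of Dnmt1 to -2.46 and that of Uhrf1 to 0.13, so that the direction of Uhrf1 rests on the scaling. The other 6 lower genes stayed between -4.06 and -2.46 after scaling, and Dnmt3l stood at 3.64.

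Without the leptotene/zygotene libraries the pattern was alike. In pachytene cells against the pre-meiotic table, lower values were found for 6 of the 8 genes, Dnmt3l was higher by a log2 difference of 2.12 (4.35-fold), and Uhrf1 had -0.07. After scaling Uhrf1 had 0.62, again with its direction turned, and Dnmt1 -1.29. The lower genes had log2 differences of -5.23 for Dnmt3a, -4.82 for Tet3, -4.36 for Tet2, -3.80 for Tet1, -3.66 for Dnmt3b and -1.98 for Dnmt1. Tet1 had at most 0.0936 FPKM and Tet2 at most 0.171 FPKM at pachytene, so the 0.1 added makes their differences smaller than their FPKM ratios. The order among the TET genes rests on the 0.1 added. Of 19832 genes, 48.2% were lower and 25.6% higher, with a median of -0.98. In pachytene against leptotene/zygotene cells Dnmt1 alone was counted as higher, with 1.63 (3.09-fold) and 1.17 after scaling. This comparison rests on the leptotene/zygotene libraries, which stood apart from their label. Uhrf1 had 0.96 there, Dnmt3b 0.58, Dnmt3a -0.23 and Dnmt3l -0.41, and the TET genes were all under 1 FPKM in both tables and were not counted. Of 17159 genes, 17.3% were higher and 11.1% lower, with a median of 0.30.

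Ratios between members within a library do not depend on the scaling of the tables. Uhrf1 over Dnmt1 was 1.18 (second) and 1.62 (first) at day 3, 1.25 (second) and 1.03 (first) in the pre-meiotic table, 6.90 (second) and 6.93 (first) at leptotene/zygotene and 3.56 (second) and 5.17 (first) at pachytene. Uhrf1 was therefore several-fold above its partner in every spermatocyte library and nearer its level in the young testes. Dnmt3a over Dnmt3b was 6.98 (second) and 5.85 (first) at day 3, 1.35 in both conditions of the pre-meiotic table, 0.716 (second) and 0.833 (first) at leptotene/zygotene and 0.324 (second) and 0.556 (first) at pachytene. This ratio was lower in each later table, without overlap of the values. The spermatocyte ratios rest on low levels, from 0.787 FPKM for Dnmt3a to 2.43 FPKM for Dnmt3b. Implied errors of the log2 fold between conditions were 0.34 for Dnmt3a and 0.77 for Dnmt3b at leptotene/zygotene, and 0.42 and 0.41 at pachytene. The step between these stages also rests on the leptotene/zygotene libraries, which stood apart from their label, and it was not tested. Dnmt3l over Dnmt3a was 0.111 (second) and 0.0672 (first) at day 3, 0.0223 (second) and 0.0484 (first) in the pre-meiotic table, 6.95 (second) and 7.48 (first) at leptotene/zygotene and 5.52 (second) and 7.47 (first) at pachytene. The transcript of the helper thus stood above that of the enzyme in all 4 spermatocyte libraries and below it in all 4 young testis libraries.

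Tet3 made up 66.0% (second) and 66.3% (first) of the summed TET FPKM at day 3, 76.3% (second) and 76.4% (first) in the pre-meiotic table, 70.5% (second) and 78.5% (first) at leptotene/zygotene and 78.8% (second) and 74.4% (first) at pachytene. The sum itself was 15.2 (second) and 26.2 (first) FPKM at day 3, 32.8 (second) and 31.7 (first) in the pre-meiotic table, 0.624 (second) and 1.05 (first) at leptotene/zygotene and 1.17 (second) and 0.877 (first) at pachytene. The make-up thus moved far less than the sum. Tet1 was the smallest share in every library, between 5.88% and 13.2%. In the spermatocyte libraries the shares rest on very low values, at most 0.0936 FPKM for Tet1 and 0.171 FPKM for Tet2. Tet1 was not tested in either spermatocyte table, nor Tet2 at leptotene/zygotene, so the shares there are imprecise.

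**Figure D2:**
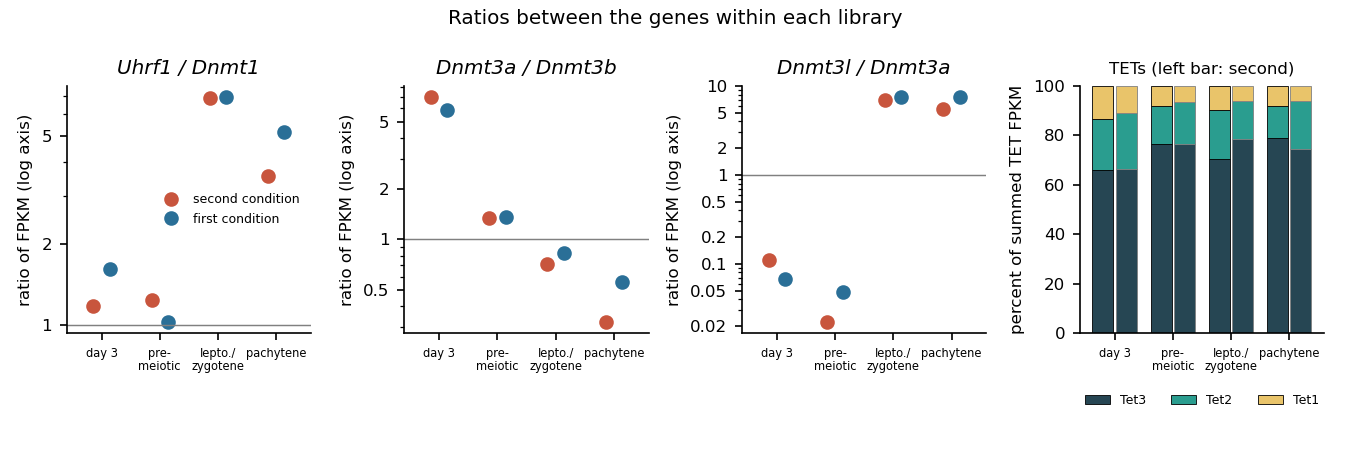
Ratios of FPKM within each library for 3 pairs of genes (y axes, log scale, grey line at 1) and the share of each TET gene in the summed TET FPKM (bars, percent), by table, with the second condition to the left of the first. Dnmt3l over Dnmt3a was at least 5.52 in spermatocytes and at most 0.111 in young testes, and Tet3 held 66.0% to 78.8% of the TET sum.

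Within a table, a gene was called where the authors' q-value was at most 0.05. The error beside each log2 fold is the one implied by the authors' statistic and covers counting and model error of 2 libraries. At day 3, 4 of the 8 genes were called, all lower in the second condition: Uhrf1, Tet2, Tet3 and Dnmt3b. Of 24020 genes tested there, 14.8% were called, 9.97% as lower in the second condition. In the authors' deposited table Uhrf1 had a log2 fold of -0.82 with an implied error of 0.13 and q = 6.91e-08, Tet2 had -0.91 with 0.28 and q = 0.0121, Dnmt3b had -0.52 with 0.16 and q = 0.0129, and Tet3 had -0.79 with 0.26 and q = 0.0203. The remaining 4 genes were not called at day 3 in the authors' deposited table. Tet1 had a log2 fold of -0.54 with an implied error of 0.28 and q = 0.194, Dnmt1 -0.37 with 0.28 and q = 0.406, Dnmt3a -0.26 with 0.18 and q = 0.365, and Dnmt3l 0.46 with 0.60 and q = 0.658, all in the authors' deposited table. On the scale of log2((second + 0.1)/(first + 0.1)) 7 of the 8 genes were below 0 at day 3, with a median of -0.51 beside 0.02 over all genes tested.

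**Figure D3:**
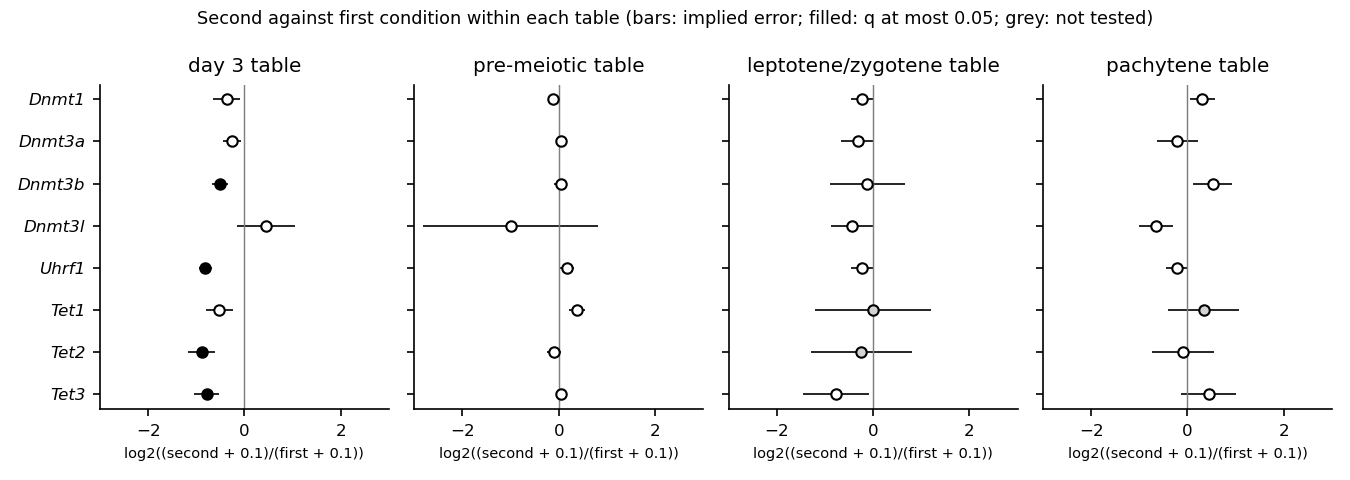
Log2 ratio of the second over the first condition with 0.1 FPKM added (x axis) for each gene in each table, with bars for the implied error, filled points for a q-value of at most 0.05, open points for tested genes that were not called and grey points for genes not tested. The 4 filled points are Dnmt3b, Uhrf1, Tet2 and Tet3 at day 3, all left of 0.

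The day 3 libraries also differed by the span of the locus that holds a gene. Genes tested with at least 1 FPKM in either condition were put in 5 equal groups by the span of their locus, introns included. The median log2 ratio was 0.36 in the group with the shortest loci and 0.19, 0.03, -0.16 and -0.24 in the groups after it, and the share called as lower in the second condition was 2.01%, 4.62%, 9.82%, 19.8% and 27.3%. Uhrf1 (chr17:56442744-56462909, 20166 bases) and Dnmt3l (chr10:77492767-77526367) lie in the middle group. Dnmt1 (chr9:20711650-20757317), Dnmt3b (chr2:153474426-153513466), Tet1 (chr10:62267318-62342762), Tet2 (chr3:133126643-133207354) and Tet3 (chr6:83312367-83391672) lie in the next, and Dnmt3a (chr12:3806523-3914443, 107921 bases) in the group with the longest loci. These loci are as the tables give them, in a build not given in the sources used here. Set against the median of its own group, the log2 ratio was -0.84 for Uhrf1, -0.72 for Tet2, -0.62 for Tet3, -0.36 for Tet1, -0.34 for Dnmt3b, -0.20 for Dnmt1, -0.02 for Dnmt3a and 0.42 for Dnmt3l. Spermatogonial markers moved the same way at day 3. Of 10 markers, 6 (Zbtb16, Gfra1, Ret, Kit, Nanos2 and Nanos3) were called lower in the second condition, beside 9.97% of all genes tested, and none was called higher. The summed level of the 10 was 49.4 FPKM in the second and 88.2 FPKM in the first condition. The part of locus span and of spermatogonial transcripts in the day 3 differences was not tested.

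**Figure D4:**
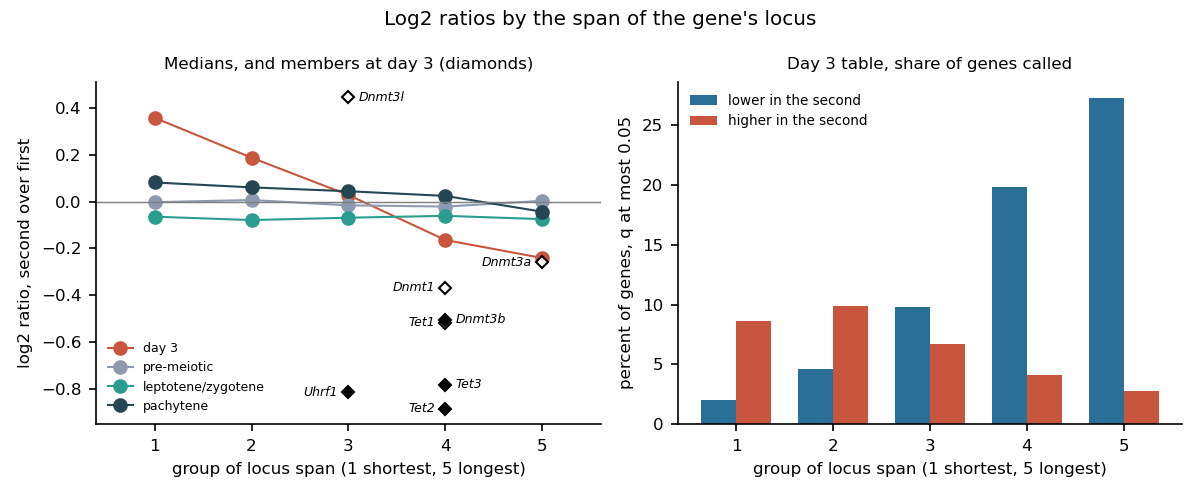
Left, median log2 ratio of the second over the first condition (y axis) by group of locus span (x axis, 1 shortest to 5 longest) in each table, with the 8 genes at day 3 as diamonds, filled where called. Right, percent of genes in each group called as lower or higher in the second condition at day 3. The day 3 medians run from 0.36 to -0.24, and Uhrf1, Tet2 and Tet3 lie well below the median of their group.

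In the other 3 tables none of the 8 genes was called. All 8 were tested in the pre-meiotic table, where 1.15% of 20154 genes were called, 6 at leptotene/zygotene, where 2.14% of 19524 were called, and 7 at pachytene, where 1.63% of 22322 were called. Tet1 was not tested at leptotene/zygotene or pachytene, nor Tet2 at leptotene/zygotene. At an unadjusted p under 0.05 in the authors' deposited table there was 1 among these, Tet1 in the pre-meiotic table, with a log2 fold of 0.40, an implied error of 0.17, p = 0.0151 and q = 0.302. The 4 genes called at day 3 had pre-meiotic log2 ratios of 0.16 for Uhrf1, -0.10 for Tet2, 0.05 for Tet3 and 0.04 for Dnmt3b, with implied errors of 0.15, 0.14, 0.11 and 0.14. The difference between the tables was not tested.

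Dnmt3l at pachytene and Tet3 at leptotene/zygotene had the widest ratios among the spermatocyte values. Dnmt3l had a log2 ratio of -0.66 at pachytene with an implied error of 0.35 and -0.45 at leptotene/zygotene with 0.43. Tet3 had -0.78 at leptotene/zygotene with an implied error of 0.68 and 0.44 at pachytene with 0.57. All 8 genes were below 0 at leptotene/zygotene, where the median over the 6 tested was -0.27 and that over all genes tested was -0.06. At pachytene 4 of the 8 genes were below 0. Markers of other cells did not all go 1 way in these tables. The 4 myoid markers summed to 23.8 (second) and 5.43 (first) FPKM at leptotene/zygotene and 19.8 (second) and 7.17 (first) FPKM at pachytene. In the same order, endothelial markers summed to 5.85 (second) and 2.21 (first) FPKM, then 8.05 (second) and 2.01 (first). Macrophage markers summed to 44.5 (second) and 9.88 (first) FPKM, then 44.5 (second) and 4.66 (first), with 2 of 4 below 0 in each table. Erythrocyte markers summed to 284 (second) and 35.2 (first) FPKM, then 15.1 (second) and 5.98 (first). Sertoli markers summed to 46.6 (second) and 64.0 (first) FPKM at leptotene/zygotene but 124 (second) and 110 (first) FPKM at pachytene. Leydig markers summed to 12.8 (second) and 12.4 (first) FPKM at leptotene/zygotene and 36.7 (second) and 42.8 (first) FPKM at pachytene. Immediate early genes were called higher for 6 of 6 and 5 of 6, beside 2.14% and 1.63% of all genes called in either direction. The part of other cells and of immediate early genes in the ratios of the 8 genes was not tested.

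No gene of the 8 that was tested reached 2-fold between the conditions of any table on the scale with 0.1 added. The share of all genes tested that did was 14.2% at day 3, 13.7% in the pre-meiotic table, 18.2% at leptotene/zygotene and 17.8% at pachytene. The closest was Dnmt3l in the pre-meiotic table, with a log2 ratio of -0.99 at levels of 0.809 (second) and 1.71 (first) FPKM and an implied error of 1.82. The interval this error gives takes in both directions, and a difference in Dnmt3l was not detectable there.

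A list of 14 factors linked to DNA methylation, called cofactors here, was found and tested in full at day 3. Of these, 5 were called lower in the second condition and 1 higher. Of all genes tested at day 3, 14.8% were called, 9.97% as lower in the second condition. Usp7, a deubiquitinase that stabilises Dnmt1 and Uhrf1, had 51.0 (second) and 134 (first) FPKM at day 3, a log2 ratio of -1.39 with an implied error of 0.16. The other called genes were Setd2 (-0.66) and Nsd1 (-0.59), which methylate histone H3, Kdm1b (-0.61), a histone demethylase, and Morc1 (-0.86), needed to silence transposons in the male germ line. Trim28, a corepressor at imprinted and transposon sequences, was called higher, with 887 (second) and 622 (first) FPKM. In the pre-meiotic table Ctcfl, a testis relative of the insulator protein Ctcf, was the only one called, beside 1.15% of all genes tested. It had 2.65 (second) and 6.10 (first) FPKM and a log2 ratio of -1.17. None of the 13 cofactors tested at leptotene/zygotene or the 14 tested at pachytene was called.

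Of the cofactors, 7 of 12 measured were lower and none higher in pachytene cells against the pre-meiotic table, beside 48.2% lower of all genes, and the median log2 difference was -1.96, beside -0.98 over all genes. At leptotene/zygotene 8 of 12 were lower, beside 52.5% of all genes, and Zfp57 was higher. Hells, a chromatin remodeller needed for methylation, had 23.0 (second) and 16.9 (first) FPKM at pachytene, against 186 (second) and 201 (first) FPKM in the pre-meiotic table, a log2 difference of -3.29. Uhrf2, the closest relative of Uhrf1, had -2.43 over the same stages. Usp7 and Trim28 had 0.16 and 0.39, and both were at 193 FPKM or more in every spermatocyte library. Zfp57, which keeps imprints methylated, had 0.72, and Pcna, the replication clamp that Dnmt1 binds, had -0.11.

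Of 7 genes from families of proteins that bind methylated DNA, 4 were called lower in the second condition at day 3 and 1 higher. The share of all genes tested that was called lower was 9.97%. Binding by each of the 7 was not examined here. Zbtb38 had 4.63 (second) and 29.7 (first) FPKM, a log2 ratio of -2.66 with an implied error of 0.43, the widest of these. Zbtb4 had 11.7 (second) and 23.5 (first) FPKM and Zbtb33 a log2 ratio of -0.69. Mbd3, called higher, had 206 (second) and 151 (first) FPKM. None of the 7 was called in the other 3 tables. In pachytene cells against the pre-meiotic table, lower values were found for 6 of 7, beside 48.2% of all genes, with -4.67 for Zbtb33, -1.52 for Mbd1 and -1.30 for Mbd2, and Mbd3 alone was above 0, with 0.75.

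Among 16 genes of base excision repair and deamination, which are linked to active demethylation, levels split by gene across stages. Tdg, the glycosylase that removes oxidised methylcytosine, had 1.38 (second) and 1.62 (first) FPKM at pachytene, against 24.6 (second) and 28.0 (first) FPKM in the pre-meiotic table, a log2 difference of -4.05. Ung had -4.35, Neil1 -4.64 and Neil2 -4.34, all glycosylases too. Neil1 had at most 0.167 FPKM and Neil2 at most 0.230 FPKM at pachytene, so the size of their differences depends on the 0.1 added. The later steps of the same repair did not go 1 way. Apex1, the endonuclease of this repair, had a log2 difference of -1.77 and Parp1, which senses strand breaks, -1.47. By contrast Polb, the polymerase that fills the gap, had 156 (second) and 135 (first) FPKM at pachytene, against 19.4 (second) and 26.6 (first) FPKM in the pre-meiotic table, and Lig3, a ligase, had 211 FPKM in both conditions, against 47.0 (second) and 46.8 (first) FPKM. Of 15 measured, 10 were lower and Polb and Lig3 were higher, beside 48.2% lower and 25.6% higher of all genes, and the median log2 difference was -1.98, beside -0.98 over all genes. Within the tables, Apex1 was called higher in the second condition at day 3 (0.44) and lower at leptotene/zygotene (-0.96), and Lig3 was called lower at day 3 (-0.57). Of all genes tested, 14.8% were called at day 3 and 2.14% at leptotene/zygotene.

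Genes of DNA replication, the process that Dnmt1 and Uhrf1 follow, gave 10 of 12 lower in pachytene cells against the pre-meiotic table and none higher, beside 48.2% lower of all genes, with a median log2 difference of -3.06 beside -0.98. Mcm2 had -4.69, Cdt1 -4.53, Tyms -3.94, Mcm6 -2.83, Lig1 -2.29 and Mcm7 -0.31. Dnmt1 lay at -1.98 and Uhrf1 at -0.07 over the same stages. At day 3 Mcm7, a helicase subunit, was the only one of 12 called, beside 14.8% of all genes tested. It had 83.2 (second) and 108 (first) FPKM, and the median log2 ratio of the 12 was 0.12. Trdmt1, a relative of the methyltransferases that acts on tRNA, was called in no table and had a log2 difference of -1.80 over the same stages.

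**Figure D5:**
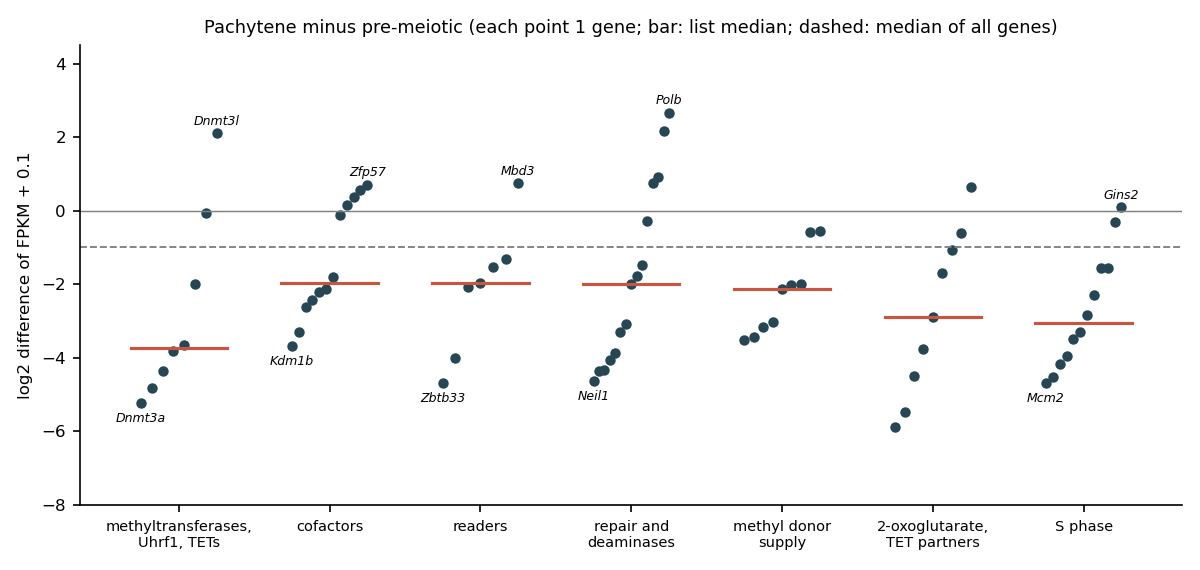
Log2 difference of FPKM with 0.1 added, pachytene minus pre-meiotic (y axis), for the measured genes of each list (x axis), with a red bar at the list median, a dashed line at the median of all genes (-0.98) and, in 5 of the 7 lists, the lowest and highest gene named. The 8 genes span the range from Dnmt3a at -5.23 to Dnmt3l at 2.12, and Polb is the highest gene of the repair list.

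The genes most like each member were found by Pearson's r of log2(FPKM + 0.1) over the 8 libraries, among 14526 genes. The libraries fall into young testes and spermatocytes, so r mainly reflects that split: 27.3% of genes had r of at least 0.9 with Dnmt1, 38.2% with Dnmt3a, 39.0% with Tet1, 38.5% with Tet2 and 36.4% with Tet3. For Dnmt3b the share was 11.9%. For Dnmt3l it was 0.929% and for Uhrf1 0.427%, so few genes shared their course. The 3 genes most like Dnmt3l were Zfp13, Klkb1 and Cd247, with r between 0.974 and 0.978, and those most like Uhrf1 were Rfx5, Zfp407 and Man2a2, with r between 0.967 and 0.984. Those most like Dnmt1 were Ibtk, Tmco7 and Anln, like Dnmt3a Srebf2, Slc4a3 and Masp1, and like Dnmt3b Appbp2, Usp31 and Spint1. For Tet1 they were Ndst1, Magt1 and Osbpl3, for Tet2 Lrp6, Tbl1x and Tcf12, and for Tet3 Ubr2, Dmrt1 and Erap1. The genes named for these 6 members all had r of at least 0.995. Among the members themselves r was highest between Dnmt3a and Tet1 (0.995) and lowest between Dnmt3b and Dnmt3l (-0.956).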

How the data were processed

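Gene expression was measured by RNA sequencing. The authors deposited FPKM per condition in 4 tables, per the file headers, and used Bowtie 0.12.7, TopHat 1.3.0, Cuffdiff and Cufflinks 1.1.0, per the submitters' processing notes. Annotation, filters and genome build are not given in the sources used here. Per the file headers the authors also deposited a log2 fold change, a test statistic, which is a score, a p-value and a q-value, and these were copied, not recomputed. The log2 fold column is a score in part, since the authors' deposited values code infinite ratios by an extreme number. Starts in the tables were found to count from 0 (3558 loci matched a RefSeq length that way and 333 the other way) and were raised by 1. Absolute depth was not given, so no counting interval was made, and p-values measure only the difference between 2 libraries, which may be technical.

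The 8 genes and all lists were chosen with earlier results of these data known, and the lists therefore carry no test. Log2 ratios and stage differences used 0.1 FPKM added. The implied error is the size of the authors' log2 fold over the size of their statistic. Named genes are all 8 members, Ago4, list genes called in any table, up to 3 genes of each pathway list with the highest mean FPKM and up to 3 with the widest range of stage means, and the 3 genes most like each member; of the marker lists only spermatogonial genes called at day 3 are named. Uhrf2, Zfp57, Tdg and Parp1, outside this rule, were chosen after their values were seen. Some list genes are not reported here. The comparisons were computed with Python 3.11.15, pandas 2.3.3 and numpy 2.4.6 and tested on simulated data. Alternatives were other pseudocounts, a filter on low values, centring, other thresholds, single libraries per stage and scaling.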

Additional observations from a re-analysis of the deposited data

How the results depend on the processing

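The count of 4 genes called at day 3 fell to 1 (Uhrf1) with the q-value limit at 0.01. With a limit of about 1.5-fold, 3 genes passed at day 3 and 1 in each of the pre-meiotic, leptotene/zygotene and pachytene tables, against 0 at 2-fold, and with 0.01 FPKM added 1 gene (Dnmt3l) passed in the pre-meiotic table. Between the pre-meiotic table and day 3, 2 genes were counted as higher when the second day 3 library was set against either pre-meiotic library, and 0 as lower with 1 FPKM added or with the first library of both tables. Between pachytene and leptotene/zygotene cells, 2 genes were higher in the first pachytene library against the second leptotene/zygotene library. Scaling turned the leptotene/zygotene minus pre-meiotic difference of Uhrf1 to 0.13. Of 76 counts of members under an alternative, 65 stayed within 1.5 times. Of 160 log2 ratios, 158 moved by less than the implied error, and of 168 stage differences 112 moved by less than the spread of the libraries, 55 moved further and 1 that had passed the count changed direction. Centring on locus span and leaving out the leptotene/zygotene libraries were chosen after seeing the data. No paired analysis was possible because each genotype and stage had 1 library and the conditions carry no genotype. Where the change of a count was not due to the limit itself, the cause was not tested.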

Other observations

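Genes that supply the methyl donor S-adenosylmethionine were lower in spermatocytes as well. In pachytene cells against the pre-meiotic table, lower values were found for 7 of 9 measured genes and higher ones for none, beside 48.2% lower of all genes, with a median log2 difference of -2.11 beside -0.98 over all genes. Mat2a, the synthetase outside the liver, had 23.1 (second) and 23.3 (first) FPKM at pachytene, against 200 (second) and 213 (first) FPKM in the pre-meiotic table. Ahcy, which clears the by-product of methylation, had 2.58 (second) and 3.98 (first) FPKM at pachytene, against 34.2 (second) and 40.9 (first) FPKM. Mat2b had a log2 difference of -3.43 and Shmt2 of -3.01. Shmt1, of the folate cycle, had -0.57. Within the tables only Bhmt of the 10 genes was called, at day 3, beside 14.8% of all genes tested there. Its levels were low, with 1.11 (second) and 0.303 (first) FPKM.

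Partners of the TET enzymes and enzymes of 2-oxoglutarate, which TET oxidation consumes, gave 7 of 9 lower in the same comparison, beside 48.2% of all genes. Idh2, the mitochondrial isocitrate dehydrogenase, was lower in all 4 spermatocyte libraries than in the young testes. It had 416 (second) and 325 (first) FPKM at day 3, 79.0 (second) and 50.1 (first) in the pre-meiotic table, 2.59 (second) and 0.816 (first) at leptotene/zygotene and 1.12 (second) and 0.855 (first) at pachytene, the last 2 stages overlapping. It was called higher in the second condition of the pre-meiotic table. Ogt, a sugar transferase that binds TET proteins, had 4.86 (second) and 4.96 (first) FPKM at pachytene, against 223 (second) and 218 (first) FPKM in the pre-meiotic table, and was called lower in the second condition at day 3. Idh1 had a log2 difference of -3.76 and Cxxc4, which binds Tet2, of -4.48. No hypothesis was tested on these genes.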
